A study of Mus musculus with 6 samples.

Results

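The 10 genes described here make, trim and guard replication-dependent histone mRNA or carry the new histone proteins to DNA: Slbp, Npat, Lsm10, Lsm11, Casp8ap2, Zfp473, Eri1, Nasp, Chaf1a and Chaf1b. They were picked by name from the 41709 genes of the deposited count table, in which all 10 were found, and all 10 passed the low-count filter that left 18427 genes for testing. RNA came from the rear nasal septum of mice, with mucosa and bone in the same piece. Zinc-deficient mice were fed a diet short of zinc from age 4 to 8 weeks, control mice a diet with sufficient zinc over the same weeks, and each diet has 3 libraries, numbered 4, 5 and 6. No strain, sex or genotype is named, and nothing in the labels ties a library to a mouse of its own, so p-values measure the spread between libraries, which may in part be technical. The series compares this tissue between the diets. Replication-dependent histone genes were 14 of the 16 genes that rose under the zinc-deficient diet, and the 10 genes here act on their mRNA and protein.

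Most mRNAs end in a poly(A) tail, but replication-dependent histone mRNAs end in a short stem-loop. The stem-loop binding protein, encoded by Slbp, holds that structure while the U7 small nuclear ribonucleoprotein, whose ring contains the proteins of Lsm10 and Lsm11, pairs with the RNA just downstream and positions the cut. The products of Npat and Casp8ap2 gather at the histone gene clusters in the histone locus body, and chaperones such as those of Nasp, Chaf1a and Chaf1b receive the newly made histones and place them on replicated DNA. In the nasal mucosa, dividing basal cells renew the olfactory epithelium, and dividing marrow cells in the attached bone also need new histones.

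The sequences that these factors read are shown first, since the results turn on how the factors compare with their targets. The element was searched on the transcript strand of GENCODE M21 as 16 bases: a stem of 6 perfect pairs that starts with GG, around a loop of 4 bases that starts with TTT and does not end in G. It was present in 40 of the 63 histone genes in the table that have an M21 transcript, in a transcript of 0 of the 10 genes, and in 28 other genes of 38619 with a transcript. The commonest form was found in 24 histone genes. The lines below give 4 histone genes that rose under the zinc-deficient diet, 1 for each of 4 forms, with the stem-loop in capitals and 5 transcript bases on either side.
H2bc7: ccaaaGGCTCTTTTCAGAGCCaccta
H2bc12: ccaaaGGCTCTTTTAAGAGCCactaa
H4c6: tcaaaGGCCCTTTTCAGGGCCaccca
H4c2: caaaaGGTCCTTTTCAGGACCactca
The U7 RNA (Rnu7, chromosome 6, 62 bases) is shown because its 5′ part pairs with histone pre-mRNA. The capitals mark the site, bases 21 to 31, on which the ring with the Lsm10 and Lsm11 proteins assembles.
Rnu7: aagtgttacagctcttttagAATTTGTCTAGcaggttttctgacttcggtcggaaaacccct

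The zinc-deficient libraries held 14397826 to 18727863 counts in genes and the control libraries 11731999 to 16748740. A count of 3 corresponded to between 0.160 and 0.256 CPM (counts put on a common scale for library size). Gene values in CPM are further scaled by TMM, edgeR's correction for library composition. Zinc-deficient replicate 4 stood apart by base composition: across 17178 genes with a mean of at least 1 CPM, its log2 deviation from the gene mean had a Spearman rho of 0.55 with transcript GC content, against −0.15 and −0.09 in the other zinc-deficient libraries and −0.31, −0.30 and 0.06 in the control libraries. Between the diets, the log2 fold change itself had a rho of 0.31 with GC over those genes. Results were therefore also computed after a correction that removes a smooth GC curve from each library, an alternative chosen after the data were seen. Markers of the labelled tissue were present: Omp, the marker of mature olfactory neurons, was at 3313 to 5051 CPM under the zinc-deficient diet and 2364 to 2882 CPM under the control diet.

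None of the 10 genes passed the test between the diets (edgeR quasi-likelihood test, Benjamini-Hochberg adjusted p under 0.05 over all genes), where 0.119% of all genes tested did, 0.0868% as higher and 0.0326% as lower under the zinc-deficient diet. DESeq2 and limma-voom also called 0 of the 10. At an unadjusted p under 0.05 there was 1, Chaf1a, against 12.9% of all genes. Slbp and Chaf1a, or 2 of 10, had CPM ranges apart in the 2 diets, both higher under the zinc-deficient diet, as had 18.9% of all genes in either direction and 9.56% in that direction, so a count of this size is close to the background. The log2 fold changes, zinc-deficient over control throughout, ran between −0.37 and 0.68 with a median of 0.07, and over all genes tested the median was −0.0021. The summed level of the 10 genes was 144 to 150.3 CPM under the zinc-deficient diet and 128 to 145 CPM under the control diet, and these ranges overlapped.

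**Figure D1:**
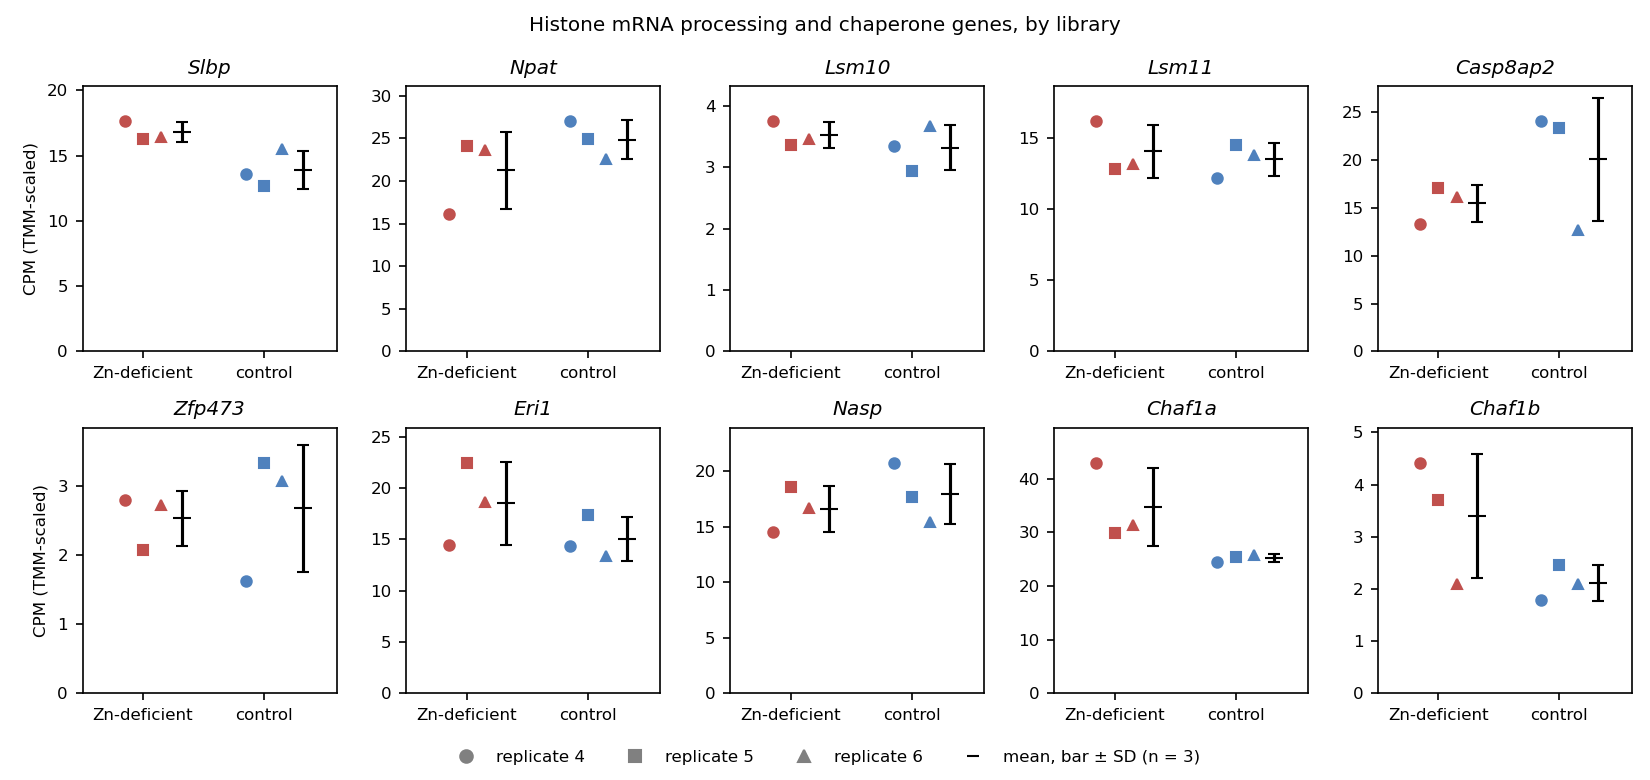
Level of each of the 10 genes (y axis, TMM-scaled CPM from 0; x axis, diet) in each library, with marker shape for the replicate number and mean ± SD of 3 libraries beside the points. Slbp and Chaf1a have separate ranges; zinc-deficient replicate 4 is the highest library for Chaf1a, at 43.0 CPM, and the lowest for Npat, at 16.1 CPM.

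Slbp encodes the protein that binds the stem-loop and accompanies histone mRNA through processing, export and translation. The gene (ENSMUSG00000004642, chromosome 5, 33792296 to 33809918, minus strand, in the deposited table, whose build is not stated) had 17.7, 16.3 and 16.4 CPM in zinc-deficient replicates 4, 5 and 6, against 13.6, 12.6 and 15.5 CPM in control replicates 4, 5 and 6. Every zinc-deficient library lay above every control library, by a small margin between zinc-deficient replicate 5 and control replicate 6. The mean was 16.8 ± 0.757 CPM under the zinc-deficient diet and 13.9 ± 1.46 CPM under the control diet (SD, n = 3 each). The 1.21-fold difference had a 95% interval of 0.929 to 1.57 and did not pass (edgeR adjusted p = 0.538). With the GC correction the log2 fold change was 0.36, against 0.27 without it, the ranges stayed apart and the test was again not passed (edgeR adjusted p = 0.407). These intervals are for a single gene and are not adjusted for the number of genes.

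The promoter of Slbp is shown with that of Chaf1a because these were the genes with separate ranges. The windows are the 300 bases around the gene start, from RefSeq on GRCm38.p6, a build whose coordinates differ from those of the deposited table. Capitals mark the CCAAT box and core words of sites for E2F, the transcription factor family of S-phase genes. The E2F words searched were TTCCCGC first, then TTCGCGC as another form, next TTGCCGC as a further form, and last of all TTGGCGC, and every word was searched on both strands. Matches on opposite strands may overlap, as E2F words do in the Casp8ap2 window, but none overlap in the windows printed. The Slbp window lies at chr5:33652525-33652824 on the minus strand and the Chaf1a window at chr17:56040166-56040465 on the plus strand.
Slbp: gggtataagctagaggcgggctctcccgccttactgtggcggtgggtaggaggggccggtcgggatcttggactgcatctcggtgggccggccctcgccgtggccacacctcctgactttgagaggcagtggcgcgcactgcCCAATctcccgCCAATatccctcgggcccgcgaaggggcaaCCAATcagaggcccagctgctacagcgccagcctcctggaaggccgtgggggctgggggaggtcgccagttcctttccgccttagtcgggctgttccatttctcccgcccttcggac
Chaf1a: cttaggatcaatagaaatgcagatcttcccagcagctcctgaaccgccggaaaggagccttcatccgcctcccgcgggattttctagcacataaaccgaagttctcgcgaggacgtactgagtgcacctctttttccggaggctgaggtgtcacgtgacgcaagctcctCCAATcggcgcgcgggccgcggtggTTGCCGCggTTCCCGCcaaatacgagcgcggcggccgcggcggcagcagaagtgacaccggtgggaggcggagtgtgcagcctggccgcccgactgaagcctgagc
The Slbp window held 3 CCAAT boxes and 0 E2F words, and the Chaf1a window 1 CCAAT box and 2 E2F words. The 9 genes with a promoter in the table had 11 windows in all, with several for Zfp473 only. Of these genes, 4 held an E2F word (Npat, Casp8ap2, Chaf1a and Chaf1b) and 7 held CCAAT in any window. Among 32851 single promoter windows of the same length, 9.57% and 37.4% did, so counts of genes are set beside shares of windows. Genes with an E2F word were at −0.22 (Npat), −0.37 (Casp8ap2), 0.46 (Chaf1a) and 0.68 (Chaf1b) on the log2 scale of the difference between diets, so they held both ends of the range of the 10. A match describes the letters and is not evidence of a site.

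Of the U7 particle, only the mRNAs of its specific proteins had counts, and neither the particle nor its proteins were measured. Rnu7 and the other 9 U7 names in the table, pseudogenes included, were listed at 0 counts in each of the 6 libraries, so no level of the RNA can be given for either diet. Lsm10 (ENSMUSG00000050188, chromosome 4, 125990416 to 125992377, plus strand) encodes one of the proteins that replace common Sm proteins in the U7 ring. It had 3.76, 3.35 and 3.46 CPM in zinc-deficient replicates 4, 5 and 6 and 3.34, 2.94 and 3.66 CPM in control replicates 4, 5 and 6, from 51, 58 and 66 counts under the zinc-deficient diet and 43, 37 and 56 counts under the control diet. The groups overlapped, and the interval of the difference, 0.678-fold to 1.65-fold, is wide (edgeR adjusted p = 0.938).

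Lsm11 (ENSMUSG00000044847, chromosome 11, 45819096 to 45835762, minus strand) encodes the other replacement protein, which also contacts the Casp8ap2 product. Its values were 16.2, 12.8 and 13.1 CPM in zinc-deficient replicates 4, 5 and 6, against 12.2, 14.5 and 13.8 CPM in control replicates 4, 5 and 6. The highest library was zinc-deficient replicate 4 and the lowest control replicate 4, and the other 4 lay between 12.8 and 14.5 CPM. The fold was 1.04 with a 95% interval of 0.786 to 1.38 (edgeR adjusted p = 0.931), and without zinc-deficient replicate 4 the log2 fold change was −0.05. The log2 ratio of Lsm10 to Lsm11 was −1.99 ± 0.102 under the zinc-deficient diet and −2.03 ± 0.236 under the control diet (SD, n = 3 each), a difference of 0.04 (two-sided exact permutation p = 1). It was −0.10 without control replicate 5 and −0.03 with the GC correction, so no direction can be given.

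Zfp473 (ENSMUSG00000048012, chromosome 7, 44380904 to 44400474, minus strand) encodes a zinc finger protein whose human relative links the U7 particle to the stem-loop binding protein. It was the lowest of the 10 per length and had 38, 36 and 52 counts in zinc-deficient replicates 4, 5 and 6 and 21, 42 and 47 counts in control replicates 4, 5 and 6. These gave 2.80, 2.08 and 2.72 CPM under the zinc-deficient diet and 1.63, 3.34 and 3.07 CPM under the control diet. The control libraries enclosed all the zinc-deficient ones, and the interval reached from 0.531-fold to 1.67-fold (edgeR adjusted p = 0.95). The log2 fold change of −0.08 turned positive without zinc-deficient replicate 5, control replicate 5 or control replicate 6, with values of 0.04, 0.10 and 0.03. Exons of Zfp473 share 205 bases with Vrk3, a gene on the opposite strand, and the library kit is not stated to keep strand, so reads of that stretch cannot be assigned.

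Npat and Casp8ap2 act where histone genes are transcribed. Npat (ENSMUSG00000033054, chromosome 9, 53448347 to 53485642, plus strand), a coactivator of histone transcription that cyclin E with its kinase phosphorylates, had 16.1, 24.0 and 23.6 CPM in zinc-deficient replicates 4, 5 and 6, against 27.1, 24.9 and 22.6 CPM in control replicates 4, 5 and 6. Zinc-deficient replicates 5 and 6 lay inside the control range, and replicate 4 lay below it. Its log2 fold change was −0.22 ± 0.19 (standard error; edgeR adjusted p = 0.652), −0.05 without zinc-deficient replicate 4 and −0.07 with the GC correction.

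Casp8ap2 (ENSMUSG00000028282, chromosome 4, 32615451 to 32653265, plus strand) encodes FLASH, a histone locus body protein that brings the cleavage factors to the U7 particle. It had 13.3, 17.0 and 16.1 CPM in zinc-deficient replicates 4, 5 and 6 and 24.1, 23.4 and 12.7 CPM in control replicates 4, 5 and 6. Control replicates 4 and 5 were above all zinc-deficient libraries, while control replicate 6 was below them. Its log2 fold change, the lowest of the 10, was −0.37 ± 0.24 (standard error; edgeR adjusted p = 0.546). It was −0.61 without control replicate 6, −0.20 without control replicate 4 and −0.20 with the GC correction, none past the test.

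Eri1 (ENSMUSG00000031527, chromosome 8, 35932407 to 35963350, minus strand) encodes an exonuclease that binds the stem-loop and trims histone mRNA from its 3′ end. The values were 14.4, 22.5 and 18.6 CPM in zinc-deficient replicates 4, 5 and 6, against 14.4, 17.4 and 13.3 CPM in control replicates 4, 5 and 6. Zinc-deficient replicates 5 and 6 were above all control libraries, and replicate 4 lay within their range. The fold was 1.23 with a 95% interval of 0.906 to 1.68 (edgeR adjusted p = 0.563). On the log2 scale the difference was 0.30, and it was 0.14 without zinc-deficient replicate 5 and 0.46 without zinc-deficient replicate 4. With the GC correction, zinc-deficient replicate 4 stood at 16.8 and the highest control library at 16.3, so the ranges separated, with a log2 fold change of 0.41 that did not pass (edgeR adjusted p = 0.339).

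Among the chaperones, Nasp (ENSMUSG00000028693, chromosome 4, 116458249 to 116485138, minus strand) encodes a carrier that keeps a store of soluble histones H3 and H4. It had 14.5, 18.6 and 16.7 CPM in zinc-deficient replicates 4, 5 and 6 and 20.8, 17.7 and 15.4 CPM in control replicates 4, 5 and 6. The groups were interleaved, with a fold of 0.927 and a 95% interval of 0.702 to 1.22 (edgeR adjusted p = 0.841). The log2 fold change of −0.11 became 0.09 with the GC correction and 0.02 without control replicate 4, so its sign was not settled.

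Chaf1a and Chaf1b encode the large and middle subunits of chromatin assembly factor 1, which deposits H3 and H4 at the replication fork. Chaf1a (ENSMUSG00000002835, chromosome 17, 56347439 to 56379289, plus strand) had 43.0, 29.9 and 31.4 CPM in zinc-deficient replicates 4, 5 and 6, against 24.4, 25.4 and 25.8 CPM in control replicates 4, 5 and 6. All zinc-deficient libraries were above all control libraries, and zinc-deficient replicate 4 was well above the other two. The mean was 34.8 ± 7.19 CPM under the zinc-deficient diet and 25.2 ± 0.707 CPM under the control diet (SD, n = 3 each). The 1.38-fold difference had a 95% interval of 1.07 to 1.78 and did not pass over all genes (edgeR unadjusted p = 0.0188, adjusted p = 0.302). On the log2 scale the difference was 0.46, and it was 0.29 without zinc-deficient replicate 4 and 0.41 with the GC correction (edgeR adjusted p = 0.276). In GENCODE M21, 4648 of the 8854 exon bases of Chaf1a are also exon bases of Ubxn6, which lies on the opposite strand. Ubxn6 held more counts than Chaf1a, 6836 against 2728 over the 6 libraries, and was at 91.2, 75.4 and 83.3 CPM in the zinc-deficient libraries against 52.7, 69.3 and 75.4 CPM in the control libraries, or 0.34 on the log2 scale (edgeR adjusted p = 0.375). How many Chaf1a counts came from Ubxn6 was not tested, and the Chaf1a values are uncertain to that extent.

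Chaf1b (ENSMUSG00000022945, chromosome 16, 93680789 to 93703003, plus strand) shares 0 exon bases with another gene model that overlaps it. It had 60, 64 and 40 counts in zinc-deficient replicates 4, 5 and 6 and 23, 31 and 32 counts in control replicates 4, 5 and 6, or 4.42, 3.70 and 2.10 CPM under the zinc-deficient diet and 1.79, 2.47 and 2.09 CPM under the control diet. Zinc-deficient replicates 4 and 5 were above all control libraries, and replicate 6 lay within their range. The log2 fold change of 0.68, the highest of the 10, had a standard error of 0.38, and its 95% interval was −0.15 to 1.51 (edgeR adjusted p = 0.477). The log2 ratio of Chaf1a to Chaf1b was 3.40 ± 0.457 under the zinc-deficient diet and 3.59 ± 0.204 under the control diet (SD, n = 3 each), a difference of −0.19 (two-sided exact permutation p = 0.6). Without zinc-deficient replicate 5 the difference was 0.0068.

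Base composition moved with zinc-deficient replicate 4 among the 10 genes as it did over all genes. In log2 CPM, that library was below the mean of zinc-deficient replicates 5 and 6 for 4 genes, by values between −0.28 (Nasp) and −0.57 (Npat), and above it for the other 6, by values up to 0.64 (Chaf1b). The 4 were also the 4 of lowest GC content in their longest transcript: Nasp at 38.9%, Npat at 40.3%, Casp8ap2 at 41.0% and Eri1 at 43.2%. The other 6 had between 44.4% (Slbp) and 54.9% (Lsm10).

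**Figure D2:**
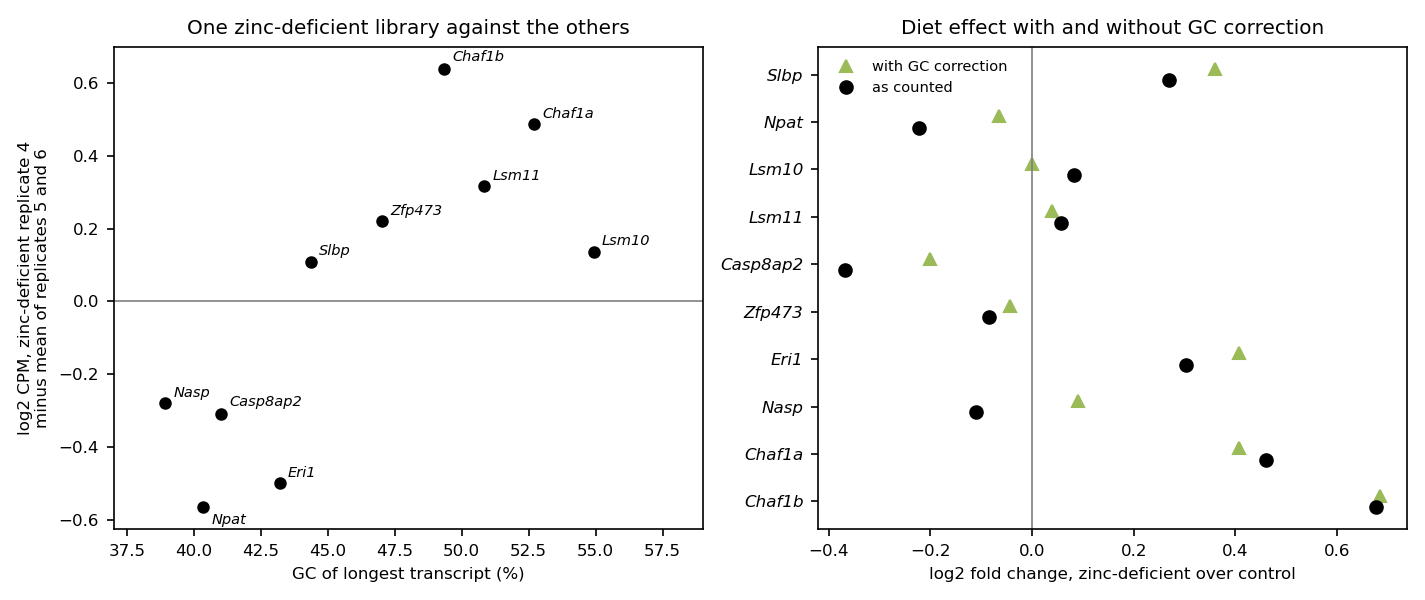
Left, GC content of each gene's longest transcript (x axis, percent) against log2 CPM in zinc-deficient replicate 4 minus the mean of zinc-deficient replicates 5 and 6 (y axis); the 4 genes of lowest GC lie below 0. Right, log2 fold change, zinc-deficient over control (x axis), with the GC correction (triangles) and as counted (circles); Nasp lies at 0.09 with the correction and −0.11 without it, Casp8ap2 at −0.20 with it and −0.37 without it.

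The order of levels per length was taken from the deposited RPKM (reads per kilobase of gene, scaled for library size), averaged over the 6 libraries. Npat was highest at 1.83 ± 0.333 RPKM (SD, n = 6), followed by Lsm10 at 1.80, Chaf1a at 1.68, Casp8ap2 at 1.29, Slbp at 1.26, Nasp at 1.14, Lsm11 at 1.05 and Eri1 at 0.944 RPKM. Neighbours among these 8 had overlapping ranges over libraries, so their order is not firm. Chaf1b at 0.292 RPKM (0.187 to 0.449) and Zfp473 at 0.128 RPKM (0.0797 to 0.152) had ranges apart from each other and from the 8. The CAF-1 subunits were therefore unequal in RPKM, with Chaf1a at a mean of 2.00 and Chaf1b at 0.370 RPKM under the zinc-deficient diet, and Chaf1a at 1.35 and Chaf1b at 0.214 RPKM under the control diet. The Ubxn6 overlap touches the Chaf1a values.

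Histone mRNAs themselves were higher under the zinc-deficient diet in the same libraries. Of 58 tested replication-dependent histone genes, 14 passed, and the median log2 fold change over the 58 was 1.33. With the GC correction it was 1.22. Tested histone genes had a median GC content of 58.9%, against 49.4% over all tested genes. The count of 14 ranged between 1 and 25 when single libraries were left out, the 1 being without control replicate 5 and the 25 without control replicate 4; it was 7 without zinc-deficient replicate 5 and 6 without control replicate 6. For 9 of the 10 genes here, the upper bound of the 95% interval, at most 0.83, lay below the median of 1.33. The exception was Chaf1b with 1.51. The 4 genes with printed stem-loops had log2 fold changes of 2.87 (H2bc7), 2.03 (H2bc12), 1.98 (H4c6) and 1.18 (H4c2), with edgeR adjusted p of 0.0147, 0.0118, 0.00616 and 0.0373. Near-identical histone genes can share reads, so single histone genes are uncertain.

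**Figure D3:**
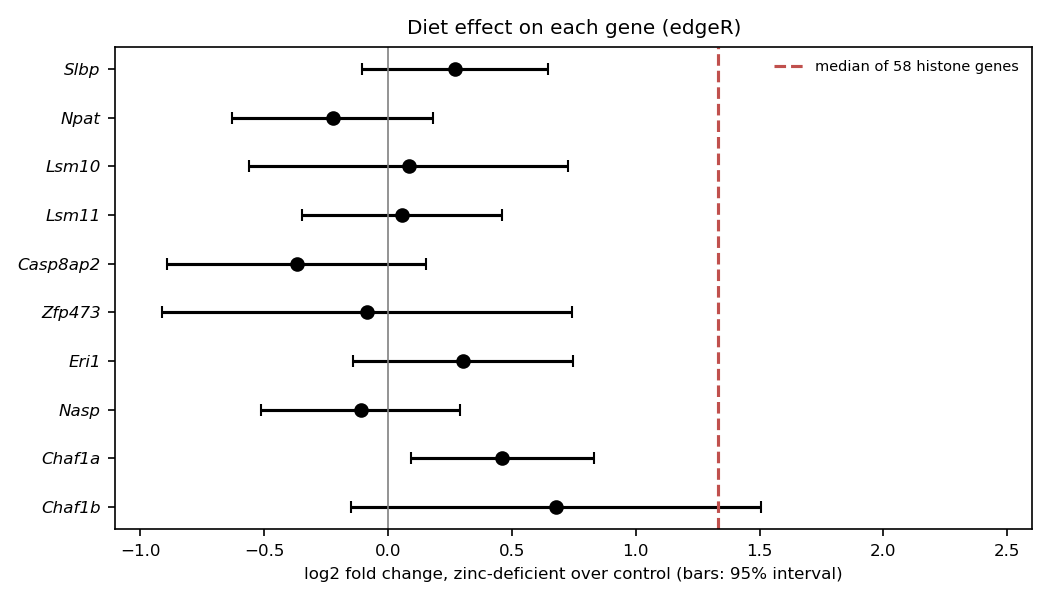
Log2 fold change, zinc-deficient over control (x axis), for each of the 10 genes, with 95% intervals from edgeR; the dashed line is the median of 58 histone genes, 1.33. The Chaf1a interval lies above 0 before adjustment, and the Chaf1b interval is the only 1 of the 10 to reach the dashed line.

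By form of the stem-loop, tested genes with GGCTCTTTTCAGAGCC numbered 21 with a median log2 fold change of 1.30, those with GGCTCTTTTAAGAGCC numbered 5 with 1.25, and those with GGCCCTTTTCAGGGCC numbered 6 with 0.84, between 0.08 and 3.29. The other 3 forms had 2 genes or fewer each. Genes with the element in an M21 transcript had a median of 1.23 over 37 genes and those without had 1.56 over 21. These are descriptions of fitted values, and absence says only that the letters are not in these gene models.

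The summed level of the 58 histone genes per library was set beside Slbp. The sum was 3853, 2616 and 2772 CPM in zinc-deficient replicates 4, 5 and 6, against 1715, 1335 and 1634 CPM in control replicates 4, 5 and 6. The log2 ratio of that sum to Slbp CPM was 7.77, 7.33 and 7.40 in the zinc-deficient libraries and 6.98, 6.72 and 6.72 in the control libraries. Histone reads per Slbp read were thus higher in every zinc-deficient library, with a mean log2 ratio of 7.50 ± 0.237 under the zinc-deficient diet and 6.81 ± 0.148 under the control diet (SD, n = 3 each). The difference was 0.69 (two-sided exact permutation p = 0.1, which no split of 3 and 3 libraries can go below). The difference lay between 0.56 and 0.78 when single libraries were left out and was 0.52 with the GC correction. Since the genes differ in length, the ratio itself is not a count of molecules, and only its difference between diets is read here. The histone genes were higher in these same libraries, as given above, so the ratio and its p restate that rise beside Slbp. They are not separate support for it.

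**Figure D4:**
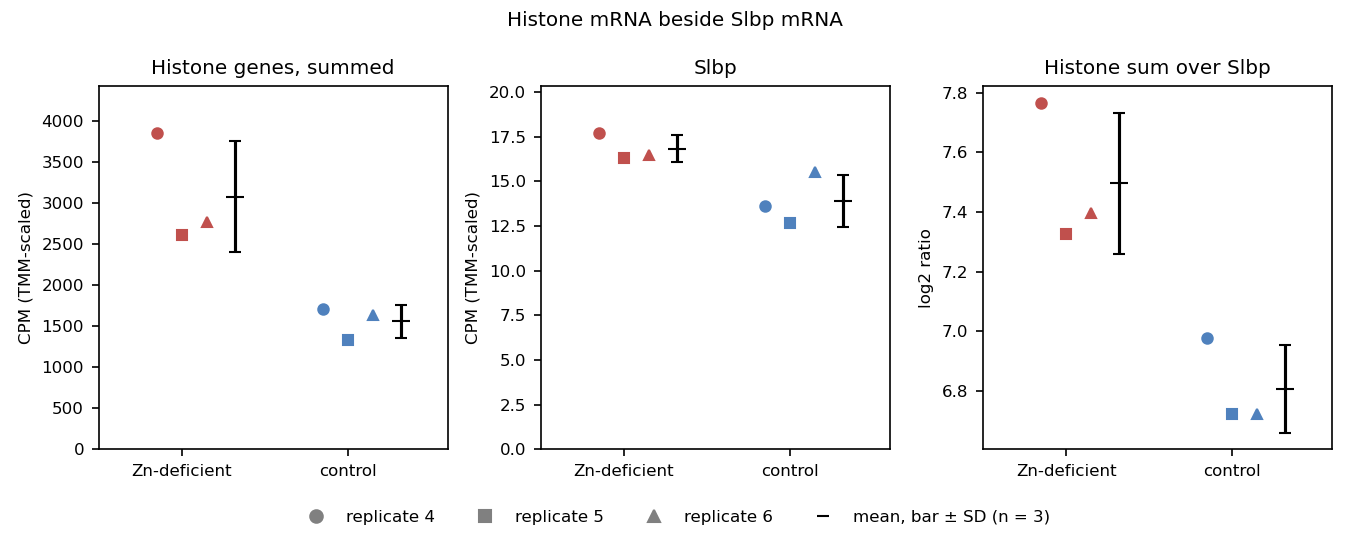
Summed CPM of 58 histone genes (left), Slbp CPM (middle; both y axes from 0) and the log2 ratio of the sum to Slbp (right; y axis not from 0), by diet, with mean ± SD of 3 libraries. The ratio is 7.33 to 7.77 in zinc-deficient libraries and 6.72 to 6.98 in control libraries.

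The other genes of the pathway, from lists chosen with earlier results of these data known, likewise had 0 calls in edgeR. A single value given for a gene is its log2 fold change. Over all 18427 genes tested, 12.9% had an unadjusted p under 0.05 and 9166 had a log2 fold change above 0. DESeq2 called 342 genes over all genes, against 22 in edgeR. The 3′ processing list (cleavage factors, cap-binding proteins and common Sm proteins) had a median log2 fold change of 0.06 over 16 tested genes, with 12 positive, 3 at an unadjusted p under 0.05 and 1 called by DESeq2. Its most abundant genes per length were Snrpb, a common Sm protein gene, at 0.35 (edgeR adjusted p = 0.312), and Srrt, a cap-complex partner, at 0.12 (edgeR adjusted p = 0.755). The gene called by DESeq2 was Snrpf, an Sm ring gene, at 6.48, 7.45 and 10.2 CPM in zinc-deficient replicates 4, 5 and 6 and 3.89, 3.66 and 3.86 CPM in control replicates 4, 5 and 6, a difference of 1.08 on the log2 scale (edgeR adjusted p = 0.167). Summed over the list, the diets did not overlap, at 835 to 878 CPM under the zinc-deficient diet and 785 to 829 CPM under the control diet.

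Genes of the histone locus body and its cell cycle regulators had a median of 0.04 over 14 genes, with 9 positive and 2 at an unadjusted p under 0.05. Those 2 were Ccna2, the cyclin A2 gene, at 19.4, 16.4 and 16.6 CPM in zinc-deficient replicates 4, 5 and 6 and 13.0, 7.71 and 5.56 CPM in control replicates 4, 5 and 6 (edgeR adjusted p = 0.196; called by DESeq2), and E2f1, of the E2F family, at 0.68 (edgeR adjusted p = 0.34). The most abundant genes of the list, Gon4l and Cramp1, were at −0.10 and 0.02. The histone mRNA decay list had a median of 0.04 over 19 genes, with 1 at an unadjusted p under 0.05, Lsm6, of the decapping Lsm ring, at 0.44 (edgeR adjusted p = 0.347), and 0 called by DESeq2. Upf1, the helicase that starts histone mRNA decay, was at 186, 149 and 156 CPM in zinc-deficient replicates 4, 5 and 6 and 140.1, 134 and 148 CPM in control replicates 4, 5 and 6, or 0.22 on the log2 scale (edgeR adjusted p = 0.5), and its ranges were separate by less than 1 CPM. Lsm4, of the same ring as Lsm6, was at 0.53 (edgeR adjusted p = 0.452).

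The list of partners of the stem-loop binding protein in translation, export and turnover had a median of −0.05 over 12 genes, with 3 positive. Ccnf, which encodes the cyclin F that marks this protein for degradation late in the cell cycle, was at 11.9, 9.82 and 8.12 CPM in zinc-deficient replicates 4, 5 and 6 and 5.21, 4.37 and 3.14 CPM in control replicates 4, 5 and 6. Its log2 fold change was 1.23 ± 0.27 (standard error; edgeR adjusted p = 0.133), DESeq2 called it, and it was the only gene of the list at an unadjusted p under 0.05. The most abundant genes of the list, Eif4g1, a translation initiation scaffold gene, and Dcaf11, a ubiquitin ligase adaptor gene, were at −0.09 and 0.07.

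Other H3-H4 chaperones and partners had a median of 0.09 over 21 genes, with 15 positive. At an unadjusted p under 0.05, 4 were higher and 1 lower. Asf1b, the chaperone that hands H3 and H4 to CAF-1 in dividing cells, was at 5.16, 4.33 and 4.82 CPM in zinc-deficient replicates 4, 5 and 6 and 2.80, 1.67 and 0.785 CPM in control replicates 4, 5 and 6, or 1.45 on the log2 scale (edgeR adjusted p = 0.216). Cenpa, the centromeric H3 variant gene, was at 0.98 (edgeR adjusted p = 0.144; called by DESeq2), Mcm2, a helicase subunit gene whose product also binds H3 and H4, at 0.71 (edgeR adjusted p = 0.23), and Mms22l at 0.63 (edgeR adjusted p = 0.332). Atrx, a chromatin remodeller gene, was at −0.43 (edgeR adjusted p = 0.328). The most abundant genes, Hjurp and Supt6, were at 0.01 and 0.04. The H2A-H2B chaperone list had a median of −0.02 over 16 genes, with Anp32e at 0.34 (edgeR adjusted p = 0.296) and its most abundant genes Set and Npm1 at 0.13 and −0.04; DESeq2 called 0.

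**Figure D5:**
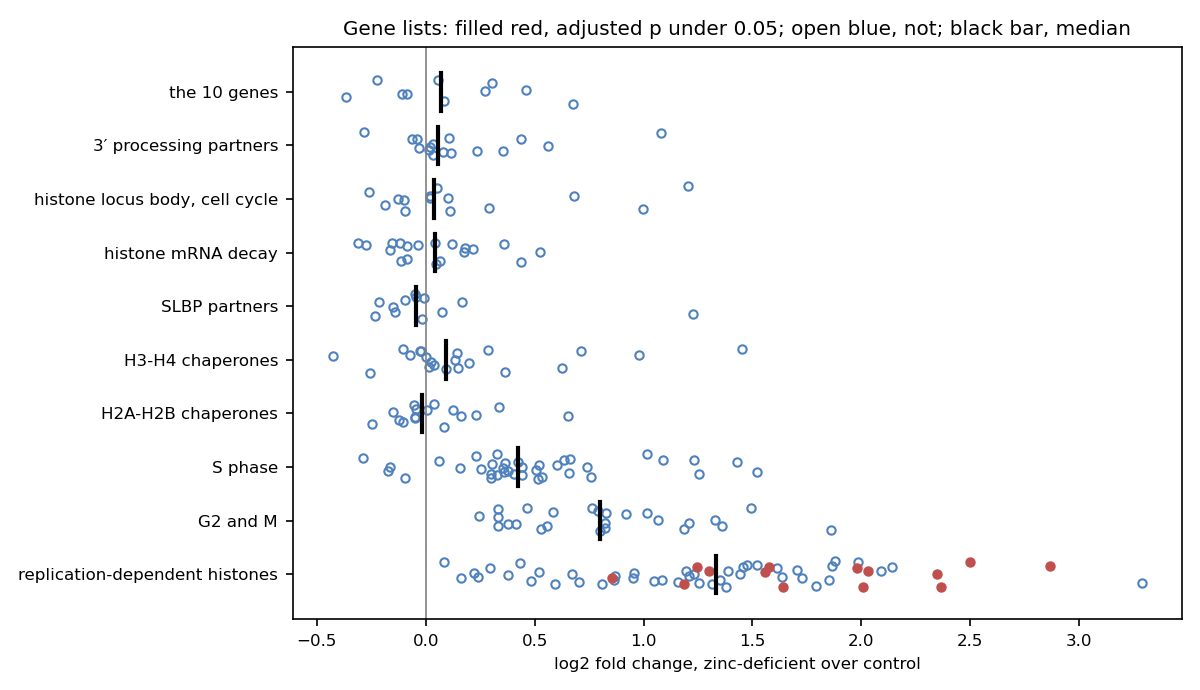
Log2 fold change, zinc-deficient over control (x axis), of each tested gene in the lists named on the y axis; filled red points passed an adjusted p of 0.05 in edgeR, open blue points did not, and black bars are medians. The 10 genes have a median of 0.07, S-phase genes 0.42, G2 and M genes 0.80 and histone genes 1.33.

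Lists of genes of dividing cells were set beside these values. The S-phase list had 33 of 37 members above 0, a median of 0.42 and 0 past edgeR's test, and summed to 423 to 518 CPM under the zinc-deficient diet and 298 to 371 CPM under the control diet. The list of G2 and M genes had 25 of 25 members above 0, a median of 0.80 and 0 past the test, and summed to 276 to 338 CPM under the zinc-deficient diet and 111 to 244 CPM under the control diet. At an unadjusted p under 0.05 there were 14 and 13, beside 12.9% of all genes tested. DESeq2 called 4 of each list and 342 genes over all genes, against 22 in edgeR. The sliding clamp gene Pcna stood at 0.15 (edgeR adjusted p = 0.713), and Mki67, which is made in cycling cells, at 1.01 (edgeR adjusted p = 0.524). Gins4 and Dut, the most abundant by RPKM in the S-phase list, which does not hold Pcna, were at 0.60 and 0.31, and Cdc20, of the mitotic list, was 2.82-fold higher without passing (edgeR adjusted p = 0.0673). The part of cell division in the values of the 10 genes was not tested.

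Markers of the cell types in the piece were also compared, since in bulk tissue fewer cells of a type and less RNA per cell cannot be told apart. The marrow lists had median log2 fold changes of 1.44 (erythroid), 1.78 (neutrophil precursor) and 1.69 (developing B cell), each above the histone median of 1.33. Of the 19 erythroid markers 18 were above 0, 5 had an unadjusted p under 0.05, 7 had separate ranges, all higher under the zinc-deficient diet, and 0 passed the test. Of the 12 neutrophil precursor markers 11 were above 0, 6 had an unadjusted p under 0.05, 7 had separate higher ranges and 0 passed. Of the 12 developing B cell markers 11 were above 0, 3 had an unadjusted p under 0.05, 3 had separate higher ranges and 1 rose. Over all 18427 genes tested, 12.9% had an unadjusted p under 0.05 in either direction and 9.56% had separate higher ranges. Of those genes, 9166 had a log2 fold change above 0. The summed levels of the marrow lists overlapped between the diets. Abundant genes weigh most in every such sum, also outside the marrow lists. Col1a1, of the osteoblast list, had a mean of 6003 CPM under the zinc-deficient diet and 10904 CPM under the control diet. Erythroid sums were 1650 to 4541 CPM under the zinc-deficient diet and 590 to 1974 CPM under the control diet. Hba-a2 and Hbb-bs, which encode globins, were the most abundant, at log2 fold changes of 1.29 and 1.32. Neutrophil precursor sums were 631 to 1432 CPM under the zinc-deficient diet and 397 to 2410 CPM under the control diet, of which Ltf, the marker below 0 at −1.01, gave 282 to 1197 CPM under the zinc-deficient diet and 343 to 2399 CPM under the control diet. Developing B cell sums were 228 to 336 CPM under the zinc-deficient diet and 173 to 271 CPM under the control diet. Within these sums, Ebf1, at a log2 fold change of 0.22, gave 182 to 226 CPM under the zinc-deficient diet. Under the control diet Ebf1 gave 135 to 224 CPM. Which cells of the piece gave the Ltf and Ebf1 counts was not tested, so neither sum can be read as marrow alone. Mature olfactory neuron markers were above 0 in 12 of 12, with a median of 0.34. They summed to 9448 to 11541 CPM under the zinc-deficient diet and 6964 to 8375 CPM under the control diet. Immature ones were above 0 in 12 of 12, with a median of 0.32. Their sum was 1233 to 1324 CPM under the zinc-deficient diet and 974 to 1156 CPM under the control diet. Both sums were without overlap. In each list 6 markers had an unadjusted p under 0.05. Separate higher ranges were found for 7 mature and 6 immature markers, and 0 of either list passed. The progenitor (8 of 11 above 0, median 0.17), horizontal basal (1 of 8, −0.46), sustentacular (5 of 8, 0.16), ciliated (1 of 9, −0.33) and osteoblast (0 of 15, −0.65) marker sums overlapped between the diets. At an unadjusted p under 0.05, 2 progenitor markers were higher and 1 lower. At the same threshold 4 horizontal basal, 3 ciliated and 9 osteoblast markers were lower, and 0 sustentacular markers differed. The osteoblast sum was 6674 to 13837 CPM under the zinc-deficient diet and 12086 to 20490 CPM under the control diet. Of the cell type markers only Igll1, of the developing B cell list, passed the test, and no marker in the table was at 0 in all libraries. Igll1 had 48, 52 and 56 counts in the zinc-deficient libraries, in replicate order, and 4, 0 and 2 in the control libraries. Its control counts lie around the floor of 3 counts, and its fold has a wide 95% interval, 7.45 to 55.4. The part of cell makeup in the values of the 10 genes was not tested.

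Across the 6 libraries, the profile most like that of Slbp, out of 17285 genes with a mean of at least 1 CPM, was that of Garem1, with a root mean square difference of 0.028 in centred log2 CPM, followed by Pkm and Mfsd7a at 0.031 and 0.034. All 3 had separate ranges, higher under the zinc-deficient diet, and log2 fold changes of 0.27, 0.27 and 0.28, and none passed (edgeR adjusted p = 0.47, 0.466 and 0.717). The 3 were picked for likeness over the same 6 libraries, so ranges and log2 fold changes near those of Slbp follow from that choice. The likeness is a description over 6 libraries.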

How the data were processed

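Each library was made from 500 ng of RNA after removal of ribosomal RNA, with NEBNext kits, per the labels' protocols. The authors deposited whole-number counts per gene and RPKM values for each library, per the file headers. No aligner, counting tool, build or annotation is given in the sources read, and 12 per-library columns of other units were not used. The test of the counts was edgeR 4.0.16 (R 4.3.3): quasi-likelihood, robust dispersions, TMM, filterByExpr, diet as the only term, two-sided, adjusted over all genes tested. The standard error is the log2 fold change, without its sign, divided by the root of F, and 95% intervals are per gene. Alternatives used limma 3.58.1 and DESeq2 1.42.0, other scalings and filters, the replicate number as a block, and each library left out. The GC correction, added after the data were seen, used a lowess curve (span 0.3) per library on the GC of the longest GENCODE M21 transcript, known for 99.3% of tested genes. The code was tested on simulated data.

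The 10 genes and all lists were chosen with earlier results of these data known. Genes were named by rule: all 10, list genes past the test, the 2 most abundant tested genes per list by RPKM, Mki67, Pcna and Mcm2, and the 3 profiles most like Slbp. For lists outside the pathway the text gives sums. Snrpf, Ccna2, E2f1, Lsm6, Ccnf, Asf1b, Cenpa, Mms22l, Atrx, Anp32e, Ubxn6, Vrk3 and the histone genes with printed stem-loops were named after their values were seen. Of the listed names, 7 were not found in the table. Within a diet, every pair of libraries differed by more than sampling noise. A floor of 3 counts reflects counting error alone.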

Additional observations from a re-analysis of the deposited data

How the results depend on the processing

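None of the 10 genes passed under any of the 17 alternatives, although Zfp473 and Chaf1b have no value in both RPKM fits, whose filter on low values removed them. The upper bound of the 95% interval was 1.67 times the lower for Chaf1a and 3.15 times for Zfp473, which limits the differences that could be seen; the part of depth in these widths was not tested. Signs changed for 4 genes. The log2 fold change of Lsm10 was −0.00031 with the GC correction. That of Lsm11 lay between −0.048 and 0.12 when single libraries were left out, that of Zfp473 between −0.33 and 0.10, and that of Nasp between −0.20 and 0.016. Nasp was at 0.0035 and 0.0048 in the limma fits on log2(RPKM + 1) and log2(RPKM + 0.1). The median over all genes in those fits was 0.095 and 0.12, above these values of Nasp. With the GC correction Nasp was at 0.090. The difference in the log2 ratio of Lsm10 to Lsm11 lay between −0.10 and 0.12 when single libraries were left out and was −0.035 with the GC correction, and that of Chaf1a to Chaf1b lay between −0.44 and 0.0068. The other 6 genes kept their sign throughout, with ranges over single libraries left out of 0.20 to 0.36 for Slbp, −0.32 to −0.05 for Npat, −0.61 to −0.20 for Casp8ap2, 0.14 to 0.46 for Eri1, 0.29 to 0.56 for Chaf1a and 0.46 to 0.94 for Chaf1b. The count of genes called over all genes, 22, was 172 without the low-count filter, 342 in DESeq2, 6 in limma-voom, 10 and 7 in the limma fits on log2(RPKM + 1) and log2(RPKM + 0.1), 10 without robust dispersions, and 9 to 50 when single libraries were left out (the highest lacked control replicate 4, and the lowest lacked replicate 5 of either diet or control replicate 6). The histone count of 14 was 26, 37, 3, 7, 5 and 7 under the same settings in that order and 1 to 25 when single libraries were left out; the causes were not tested. Without the low-count filter 1 gene was called in each of the lists of SLBP partners, H3-H4 chaperones, erythroid, neutrophil precursor, mature and immature neuron, progenitor and osteoblast genes, 3 in S phase and 4 in G2 and M. DESeq2 called 1 gene in each of the lists of processing, locus body, SLBP partners, H3-H4 chaperones, neutrophil precursor, mature and immature neuron genes, 2 each in progenitor and ciliated, 3 in erythroid and 4 each in S phase, G2 and M, and osteoblast genes. The GC correction gave 1 in G2 and M, and the single developing B cell call fell to 0 in limma-voom, both RPKM fits and without robust dispersions. When single libraries were left out, the calls ran from 0 to 1 in S phase and developing B cells and from 0 to 2 in erythroid and neutrophil precursor genes. Same-numbered libraries had correlations of deviations of −0.05, 0.15 and 0.07, so the numbers were not taken to pair them. With the replicate number as a block, 153 genes were called over all genes and 35 among histones, 1 each in locus body, SLBP partners, neutrophil precursor, progenitor and ciliated genes, 2 in osteoblast, 3 each in S phase and G2 and M, 12 in erythroid genes, and 0 of the 10 genes.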
